A study of Homo sapiens with 6 samples.

Results

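The proteasome is the barrel-shaped protease that degrades ubiquitinated proteins in the cytosol and nucleus, and 48 genes for its subunits and assembly factors were compared between wild-type (WT) HEK-293T cells and a THUMPD1 KO line made from them. HEK-293T is an immortalized human embryonic kidney line. NAT10 needs the adaptor THUMPD1 to acetylate cytidine in Leu and Ser tRNAs. The KO line, edited with CRISPR-Cas9, was grown from 1 sorted cell, so clone and genotype cannot be told apart, and the WT cells were the parental line. Total RNA depleted of ribosomal RNA was sequenced from 3 libraries per genotype. The 48 genes are all rows, of 58870 in the deposited count table, whose symbol is PSMA, PSMB, PSMC, PSMD, PSME, PSMF or PSMG followed by a number, without pseudogenes and antisense genes. The labels do not say whether replicates came from separate cultures, so p values measure the spread between these libraries, which may be technical.

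The 26S proteasome has a 20S core of alpha and beta rings, with the proteolytic sites in the beta subunits PSMB5, PSMB6 and PSMB7. A 19S particle caps the core. Its base holds a ring of ATPases (PSMC genes) that unfold and thread the substrate, and its lid holds PSMD14, which removes the ubiquitin chain. In immune cells and under interferon the beta subunits PSMB8, PSMB9 and PSMB10 replace the constitutive catalytic ones, and the PA28 activator, built from PSME1 and PSME2, can take the place of the 19S cap. PSMD5, PSMD9 and PSMD10 are chaperones of the base, and PSMG1 to PSMG4 are chaperones of the core.

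THUMPD1 itself, as a check of the labels, had 3258, 3315 and 3013 counts in WT against 395, 529 and 353 in THUMPD1 KO. Total counts were 32225646 to 44099898 per library, so that a counts-per-million value (CPM) of 1 stood for 32.2 to 44.1 counts. Of 8 markers listed for HEK-293T, all 8 reached 1 CPM in every library, with a summed level of 507 to 542 CPM in WT and 429 to 484 CPM in THUMPD1 KO. NEFM among them fell from 35.3 to 5.33 CPM (limma-voom adjusted p = 1.30e-05). By contrast SLC34A1, UMOD and AQP2 of differentiated kidney and MS4A1 of B cells were at 0 in every library, and NPHS1 reached at most 0.0680 CPM. Summed markers of endothelium reached at most 0.217 CPM, and those of fibroblasts were at 12.8 to 16.997 CPM in WT and 9.02 to 12.8 CPM in THUMPD1 KO, with COL1A2 at 0. Quantities below are CPM from the deposited counts (mean ± SD, n = 3 libraries per genotype), and log2 fold changes of THUMPD1 KO over WT from limma-voom, with Benjamini-Hochberg adjusted p values over the 15088 genes that could be tested. "Called" means an adjusted p under 0.05. In bulk RNA, a change in the share of cells and a change in RNA per cell cannot be told apart.

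Short stretches of promoters are shown for called members, and for inducible subunits and PA28 genes, that hold letters known from proteasome gene control. They were read from RefSeq windows (GRCh38.p14) of 250 bases before to 50 bases after each gene's start, which 42 of the 48 members had. The first set has, in capitals, matches to TGACNNNGC, the core of the antioxidant response element bound by NFE2L1 and NFE2L2. All 5 called members with a match in their window are given.
PSMD5 (chr9:120842963-120843072, minus strand, 150 to 41 bases before the start): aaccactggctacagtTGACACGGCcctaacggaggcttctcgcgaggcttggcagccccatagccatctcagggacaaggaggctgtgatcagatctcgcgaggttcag
PSMG1 (chr21:39183615-39183644, minus strand): gcccagggcaTGACAGCGCgggcgggcggt
PSMD3 (chr17:39980760-39980789, plus strand): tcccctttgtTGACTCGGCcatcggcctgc
PSME1 (chr14:24136098-24136127, plus strand): atggcagggcTGACCCCGCctcctccatcc
PSME2 (chr14:24146766-24146795, minus strand): ccctggactgTGACCCAGCcagcaccgcct

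The second set has, in capitals, matches on either strand to the core of the interferon-stimulated response element (GAAA, any 2 bases, GAAA) in 2 of the 3 inducible catalytic subunits and in both PA28 genes. The window of PSMB9 had no match.
PSMB8 (chr6:32844032-32844061, minus strand): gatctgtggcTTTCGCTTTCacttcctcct
PSMB10 (chr16:67936852-67936881, minus strand): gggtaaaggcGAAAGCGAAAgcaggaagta
PSME1 (chr14:24136189-24136218, plus strand): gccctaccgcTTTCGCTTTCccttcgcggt
PSME2 (chr14:24146619-24146648, minus strand): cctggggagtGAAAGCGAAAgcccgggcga
All 4 hold the same 10 letters, GAAAGCGAAA, read on one strand or the other. This word, noticed in these windows and not listed beforehand, was in 35 of all 35116 promoter windows (0.0997%) and in 5 of the 51 windows of members, the fifth being that of PSMG4.

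The pattern TGACNNNGC, searched on both strands, was found in 15 of 51 member windows (29.4%) and in 13.3% of all 35116 windows. The interferon element was in 7 of 51 (13.7%) against 3.57% of all, and the site of nuclear respiratory factor 1 (GCGCA, any base, GCGC) in 7 of 51 (13.7%) against 5.78%. The 51 windows came from 42 genes and some overlap, so that these last 7 belonged to 5 genes, with PSMA4 and PSMA6 counted through a pair of windows each. CCAAT, bound by NF-Y, was in 20 of 51 (39.2%) against 34.6% of all windows. No match of one pattern overlapped a match of another in these windows. A match describes letters only. Of the 15 members with TGACNNNGC, 5 were called, and these went both ways: PSMD5, PSMG1 and PSMD3 were higher in THUMPD1 KO, PSME1 and PSME2 lower. The other members with this pattern were not called, and PSMB9 among them could not be tested.

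Most proteasome genes differed little between genotypes. Of the 48 members, 44 reached 1 CPM in at least 3 libraries and were tested. Of these, 11 (25.0%) were called, 8 higher and 3 lower, where 26.7% of all tested genes were called (13.7% higher and 13.0% lower). The share of members called is thus near that of the whole table. The median size of the log2 fold change, sign ignored, was 0.098 over the members and 0.13 over all tested genes, and 40 of the 44 members changed by less than 0.3. The members were measured with small errors, since the median standard error was 0.052 against 0.070 over all genes. With the replicate number as a block, 16 members (36.4%) were called, 11 higher and 5 lower, where 35.1% of all genes were called, and all 11 were among them. In 21 of the 44 members (47.7%) the values of the 3 WT and the 3 THUMPD1 KO libraries did not overlap, against 42.2% of all tested genes. By edgeR 10 members were called (25.7% of all genes were), and by DESeq2 the same 11 (24.3% of all genes were).

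The direction was less even. The log2 fold change was above 0 in 32 of 44 members (72.7%), against 53.6% of all tested genes, and the median was 0.067 against 0.016. The summed level of all 48 members was 4341, 4670 and 4610 CPM in the WT libraries and 4736, 4890 and 4817 CPM in the THUMPD1 KO libraries. Each THUMPD1 KO library was thus above each WT library, and the mean was 106% of WT. WT replicate 1 was the lowest, and without it 27 of the 44 members were above 0.

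**Figure D1:**
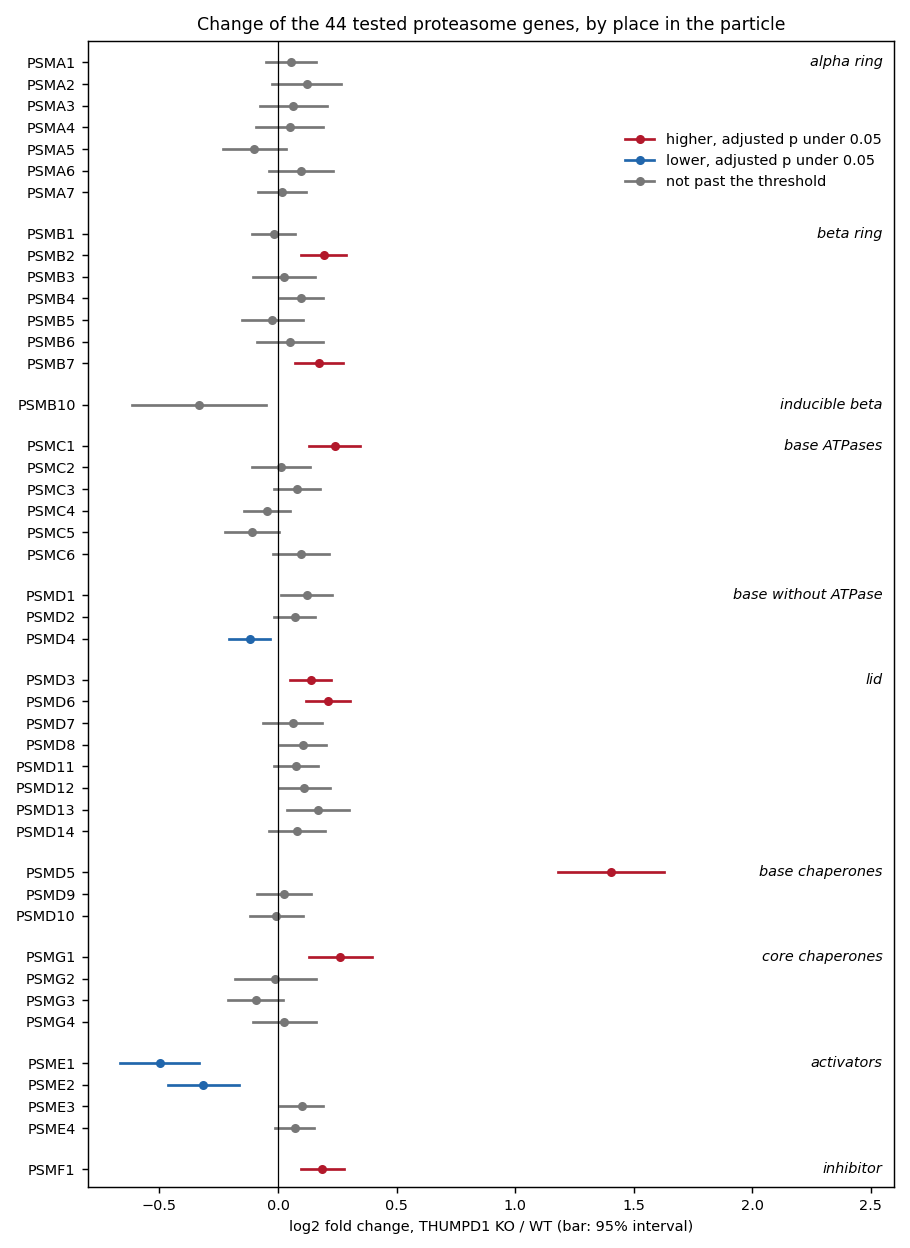
Log2 fold change of THUMPD1 KO over WT (x axis) for the 44 tested proteasome genes, grouped by place in the particle, with 95% intervals from limma-voom as bars. PSMD5 stands apart at 1.40, PSME1 and PSME2 lie lowest at −0.50 and −0.31 among genes past the threshold, and all 8 lid genes lie to the right of 0.

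The member that changed most was PSMD5, whose product is a chaperone that holds the ATPase PSMC2 during assembly of the base. PSMD5 (ENSG00000095261.14, GRCh38 chromosome 9, 120815496 to 120842951, minus strand) had 239, 174 and 183 counts in WT against 588, 545 and 431 in THUMPD1 KO. Every THUMPD1 KO library was far above every WT library. Its mean level was 5.01 CPM in WT (SD 0.622, n = 3) and 13.6 CPM in THUMPD1 KO (SD 1.40, n = 3), a 2.65-fold rise by limma-voom. On the log2 scale this was 1.40 (95% interval 1.18 to 1.63, limma-voom adjusted p = 8.34e-06), the 59th highest of all 15088 genes. It stayed between 1.33 and 1.47 with each library left out in turn.

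The other genes of the base chaperones did not move with it. PSMD9 had a log2 fold change of 0.025 (95% interval −0.090 to 0.14), and PSMD10, also known as gankyrin, of −0.0072 (−0.12 to 0.10). PAAF1, the remaining base chaperone, lies outside the symbol rule and was at 0.14 (limma-voom adjusted p = 0.121). PSMC2, the client of PSMD5, was at 0.012 (−0.11 to 0.13). PSMD5 was also the least abundant tested member per length in WT, with 1.14 CPM per kilobase of exon (RPKM). In THUMPD1 KO it was at 3.10 RPKM, above PSMG2 at 1.32. This rank depended on the length used. By the length of the canonical transcript, PSMD5 in THUMPD1 KO was at 4.03 RPKM, below PSMB10 at 6.12 and PSMG2 at 15.4.

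Around PSMD5 no other tested gene moved to the same extent. Of 12 other tested genes within 1 Mb, 2 were called, where 26.7% of all tested genes were. These were B3GALT9 at 0.44 and STOM at −0.42, and the median of the 12 was 0.024. FBXW2 and PHF19, the tested genes with the closest start on either side, were at 0.075 and −0.058. PSMD5 overlaps CUTALP, a pseudogene on the opposite strand that was below the filter and not tested. CUTALP had 33, 13 and 17 counts in WT against 52, 37 and 29 in THUMPD1 KO, higher at each replicate number. The strand option used in counting is not given in the sources used here, and how reads were divided between the pair was not tested.

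Core chaperones pair the alpha subunits and place the first beta subunits. Of the 4 genes, PSMG1 was called and PSMG2 to PSMG4 were not. PSMG1 (ENSG00000183527.11, chromosome 21, 39174769 to 39183488, minus strand) was at 43.6, 50.1 and 49.2 CPM in the WT libraries and 56.9, 57.6 and 56.7 CPM in the THUMPD1 KO libraries. The KO values lay close together and above all WT values. The log2 fold change was 0.26 (95% interval 0.13 to 0.40, limma-voom adjusted p = 0.00906). Its obligate partner PSMG2 was at −0.012 (−0.18 to 0.16), PSMG3 at −0.094 and PSMG4 at 0.026. Other genes near PSMG1 were also higher, since the median was 0.17 over 8 tested genes within 1 Mb and 0.11 over chromosome 21. Of these 8 genes 4 were called, where 26.7% of all tested genes were. POMP, which finishes the core and lies outside the symbol rule, was at 0.11 (limma-voom adjusted p = 0.294).

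In the alpha ring, which gates the entry of substrates, 0 of the 7 genes were called by limma-voom, edgeR or DESeq2. Of all tested genes, 26.7%, 25.7% and 24.3% were called by these methods. In the ring, 0 genes had an unadjusted p under 0.05 by any of them. With the replicate block 3 of the 7 had an unadjusted p under 0.05 and 0 were called, where 35.1% of all tested genes were called. The log2 fold changes of the 7 genes ran from −0.10 for PSMA5 to 0.12 for PSMA2, and every 95% interval lay within −0.23 and 0.27. PSMA5 was called as lower in 3 of 18 alternatives, namely the replicate block combined with removal of the trend along GC content and length (0.0105), with sample quality weights (0.0272) and without WT replicate 1 (0.0162). Levels differed more between the genes than between genotypes. PSMA7 was highest per length, at 65.2 RPKM ± 3.09 in WT and 66.7 RPKM ± 1.00 in THUMPD1 KO, and PSMA2 lowest, at 12.7 RPKM ± 1.17 and 13.8 RPKM ± 0.270. By the length of the canonical transcript PSMA2 was at 74.1 RPKM in WT, and PSMA5 was lowest at 24.2.

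In the constitutive beta ring, 2 of 7 genes (28.6%) were called, both higher, where 26.7% of all tested genes were called. PSMB2, a subunit without a proteolytic site, was at 152, 167 and 161 CPM in WT and 183, 184 and 183 CPM in THUMPD1 KO. PSMB7, which carries the trypsin-like activity, was at 84.8, 91.2 and 90.6 CPM in WT and 99.8, 103 and 99.5 CPM in THUMPD1 KO. In both genes the KO libraries lay above all WT libraries. The log2 fold changes were 0.19 (95% interval 0.099 to 0.29, limma-voom adjusted p = 0.00735) for PSMB2 and 0.17 (0.072 to 0.27, limma-voom adjusted p = 0.0175) for PSMB7. The PSMB7 call was lost without THUMPD1 KO replicate 2 (0.0713). Within 1 Mb of PSMB7 the median was 0.10 over 13 other tested genes, of which 5 were called. Within 1 Mb of PSMB2 it was 0.069 over 27, of which 5 were called. The other catalytic genes were at −0.024 for PSMB5, with the chymotrypsin-like activity, and 0.051 for PSMB6, with the caspase-like activity, neither called. PSMB4 was at 0.099 (limma-voom adjusted p = 0.103), and was called only after removal of the trend along GC content and length (0.0433, or 0.0302 with the block).

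The inducible catalytic subunits were scarce. PSMB8 had 1, 2 and 0 counts in WT against 5, 1 and 0 in THUMPD1 KO, and PSMB9 had 6, 4 and 5 in WT against 10, 7 and 3 in THUMPD1 KO. At this depth no difference was detectable. A library with 0 counts could still hold a level of up to 0.0680 to 0.0931 CPM (3 counts), as far as counting error goes. Per kilobase of exon, PSMB8 reached at most 0.0534% of its constitutive counterpart PSMB5 in any library, and PSMB9 at most 0.152% of PSMB6. Markers of lymphoid and myeloid cells, in which these subunits are abundant, were low as well, with a summed level of 1.18 to 1.33 CPM in WT and 1.27 to 1.44 CPM in THUMPD1 KO over 5 genes, with MS4A1 at 0. The testis form PSMA8 and the thymus form PSMB11 each had 1 count in THUMPD1 KO replicate 2 and 0 in the other libraries.

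PSMB10, the inducible counterpart of PSMB7, was the one inducible gene above the filter. It was at 6.62, 7.76 and 7.50 CPM in WT and 5.84, 5.27 and 6.85 CPM in THUMPD1 KO. THUMPD1 KO replicate 3 lay above WT replicate 1, so the genotypes overlapped. The log2 fold change was −0.33 (95% interval −0.61 to −0.051) and was not called (limma-voom adjusted p = 0.0778). It was called with the replicate block (0.0361), with sample quality weights (0.0211), without WT replicate 1 (0.0187) and without THUMPD1 KO replicate 3 (0.0499), and the range of its adjusted p over the 18 alternatives was 0.0187 to 0.259. Relative to PSMB7 per kilobase of exon, PSMB10 was at 8.57, 9.36 and 9.10% in WT against 6.43, 5.60 and 7.57% in THUMPD1 KO. These ratios did not overlap, while the CPM of PSMB10 did, and PSMB7, the denominator, was itself called higher. A two-sided exact permutation test gave p = 0.1 (n = 3 each), the smallest that 3 against 3 libraries allow.

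The 4 activator genes split in direction. PSME1 and PSME2, whose products form the ring of PA28 in the cytosol, were both lower, while PSME3, which forms the nuclear PA28 ring, and PSME4, the PA200 activator, were at 0.099 and 0.070 and not called. PSME1 (ENSG00000092010.15, chromosome 14, 24136163 to 24138967, plus strand) had 730, 704 and 682 counts in WT against 539, 518 and 388 in THUMPD1 KO. Its mean was 17.9 CPM in WT (SD 0.492, n = 3) and 12.6 CPM in THUMPD1 KO (SD 1.15, n = 3), and its log2 fold change was −0.50 (95% interval −0.66 to −0.33, limma-voom adjusted p = 8.92e-04). PSME2 (ENSG00000100911.16, chromosome 14, 24143362 to 24147570, minus strand) had 941, 922 and 829 counts in WT against 762, 780 and 543 in THUMPD1 KO. Its mean was 22.7 CPM in WT (SD 0.724, n = 3) and 18.05 CPM in THUMPD1 KO (SD 1.41, n = 3), and its log2 fold change was −0.31 (−0.46 to −0.17, limma-voom adjusted p = 0.00629). No KO library reached a WT library in either gene, and both were called in all 18 alternatives.

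PSME1 and PSME2 are neighbours on chromosome 14. The genes next to them did not show the same decrease. EMC9, which overlaps the end of PSME1 on the opposite strand, was at −0.017 (limma-voom adjusted p = 0.896), and RNF31, which overlaps PSME2 on the opposite strand, at −0.064 (0.649). IRF9 was at 0.083 (0.725). Within 1 Mb of PSME1, 13 of 47 other tested genes, PSME2 included, were called, where 26.7% of all tested genes were. The median of the 47 was −0.042. Within 150 kb, of 23 other tested genes, PSME2 included, 4 were called higher, 6 were called lower and 13 were not called. The called genes ran from PCK2 at −1.13 to REC8 at 0.77, whose starts lay 42 and 36 kb from that of PSME1. Because EMC9 and RNF31 share bases with these genes, part of the counts could belong to either strand, and this was not tested.

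PSMF1 encodes PI31, which inhibits the core in vitro and carries proteasomes along axons. It was at 113, 114 and 118 CPM in WT and 135, 129 and 135 CPM in THUMPD1 KO, with no overlap. The log2 fold change was 0.19 (95% interval 0.096 to 0.28, limma-voom adjusted p = 0.00756), and PSMF1 was called in all 18 alternatives.

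Among the 6 ATPases of the base, PSMC1 was the one called. PSMC1 (ENSG00000100764.14, chromosome 14, 90256527 to 90275429, plus strand) was at 81.1, 80.4 and 81.7 CPM in WT and 92.3, 102 and 94.96 CPM in THUMPD1 KO. The KO values were all above the WT values, with a log2 fold change of 0.24 (95% interval 0.13 to 0.35, limma-voom adjusted p = 0.00486). PSMC1 has 13 processed pseudogenes in the table, which held 17.7 to 22.7% of the counts of gene and pseudogenes together, almost all in PSMC1P1. Reads could have been divided between PSMC1 and PSMC1P1, which had a log2 fold change of 0.22 and was not called (limma-voom adjusted p = 0.146). PSMC1 was called in all 18 alternatives, including the one with pseudogene counts added. The other ATPase genes ranged from −0.11 for PSMC5 to 0.097 for PSMC6, and PSMC5 was called as lower with the replicate block (0.0413).

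Of the base subunits without ATPase activity, PSMD4 was called. Its product binds ubiquitin chains. PSMD4 was at 110, 110 and 108 CPM in WT and 102, 101 and 103 CPM in THUMPD1 KO, which is narrow but without overlap. The log2 fold change was −0.12 (95% interval −0.21 to −0.033, limma-voom adjusted p = 0.0438), and this call was lost in 9 of 18 alternatives, among them each of the 6 fits without 1 library (0.0534 to 0.129). The scaffold genes PSMD1 and PSMD2 were at 0.12 and 0.070 and not called. PSMD1 was called as higher with the replicate block (0.0227) and without THUMPD1 KO replicate 1 (0.0431). ADRM1, another ubiquitin receptor, lies outside the symbol rule and was at −0.037 (limma-voom adjusted p = 0.743).

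All 8 lid genes had a log2 fold change above 0, with a median of 0.11, and this count of 8 held in all 18 alternatives. Of these, 2 (25.0%) were called, near the 26.7% of all tested genes. They were PSMD6 and PSMD3, both scaffold subunits of the horseshoe of the lid. PSMD6 was at 127, 137 and 133 CPM in WT and 154, 159 and 155 CPM in THUMPD1 KO, with a log2 fold change of 0.21 (95% interval 0.12 to 0.30, limma-voom adjusted p = 0.00403). PSMD3 was at 142, 144 and 144 CPM in WT and 158, 157 and 164 CPM in THUMPD1 KO, with a log2 fold change of 0.14 (0.051 to 0.22, limma-voom adjusted p = 0.0250). Both had no overlap between genotypes. The PSMD3 call was lost by edgeR (0.0650) and without WT replicate 2 (0.0678), WT replicate 3 (0.0848) or THUMPD1 KO replicate 3 (0.0881).

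The other lid genes lay between 0.061 for PSMD7 and 0.17 for PSMD13. PSMD14, the deubiquitinase of the lid, was at 0.079 (95% interval −0.038 to 0.20). PSMD13 was just short of the threshold (limma-voom adjusted p = 0.0596), and with the replicate block PSMD13 (0.0144) and PSMD12 (0.0348) were called as higher. PSMD13 was also called without WT replicate 2 (0.0365). The summed level of the lid genes was 950, 1016 and 1001 CPM in WT and 1053, 1109 and 1090 CPM in THUMPD1 KO, or 110% of WT on average. For comparison, the summed core of alpha and beta rings was at 105% of WT and the base ATPases at 104%. In both of these sums the genotypes overlapped. The core was at 1613, 1806 and 1780 CPM in WT and 1798, 1860 and 1809 CPM in THUMPD1 KO. The ATPases were at 516, 548 and 541 CPM in WT and 536, 575 and 559 CPM in THUMPD1 KO. A sum without overlap was not particular to the lid. The beta ring alone was at 744, 816 and 794 CPM in WT and 832, 839 and 836 CPM in THUMPD1 KO (107% of WT). Sums of the base chaperones (108%), core chaperones (105%) and activators (104%) did not overlap either. Those of the alpha ring and of the base subunits without ATPase activity did. SEM1, the small lid subunit outside the symbol rule, was at 0.032 (limma-voom adjusted p = 0.746). The difference between the lid and the other parts was not tested.

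Levels per length spanned a wide range. In WT, the 14 constitutive core genes had a median of 47.5 RPKM, from 12.7 for PSMA2 to 79.9 for PSMB4. The 6 ATPases lay between 10.2 for PSMC2 and 44.4 for PSMC3, and the lid genes between 12.5 for PSMD14 and 33.9 for PSMD7. Chaperones were lower for the most part, from 1.14 for PSMD5 and 1.35 for PSMG2 to 29.0 for PSMD10. Subunits present in equal number in each particle thus differed in mRNA level per length. These lengths are unions of all annotated exons, and the order moves with the length used, as PSMG2 at 15.8 RPKM on its canonical transcript shows.

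Since the acetylated tRNAs decode Leu and Ser, codon content was tallied on the canonical transcript of each member. Over the 44 tested members the median share of UUA, UUG, CUU and CUA codons was 4.70%, against 3.81% over 12614 tested genes with a coding sequence, and Ser codons made up 5.95% against 7.57%. In PSMD5 these Leu codons were 37 of 504 codons (7.34%). The highest shares among tested members were 10.4% in PSME4 and 8.99% in PSMD12. Their log2 fold changes were 0.070 and 0.11, neither called, though PSMD12 was called as higher with the replicate block (0.0348). Across members, Spearman's rho between this share and the log2 fold change was 0.39 (n = 44 genes), and 0.14 over the 12614 genes. Genes are not independent replicates and share base composition and libraries, so these are descriptions.

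Genes that work with the proteasome were read from 5 lists of 50 genes in all. Of 48 tested, 11 were called, 4 higher and 7 lower, or 22.9% against 26.7% of all tested genes. Single libraries moved this count, to 6 and 4 when THUMPD1 KO replicate 1 or 3 was left out, and to 7 and 4 when WT replicate 2 or 3 was. NFE2L1, the transcription factor that raises proteasome genes when proteasome activity is short, was at 0.066 and not called (limma-voom adjusted p = 0.315). Its relatives were lower: NFE2L2 fell from a mean of 63.5 CPM (SD 2.20) to 53.7 CPM (SD 2.27, n = 3 each, log2 fold change −0.24, limma-voom adjusted p = 0.00565) and NFE2L3 from 31.3 CPM (SD 1.84) to 24.8 CPM (SD 2.26, log2 fold change −0.32, 0.0137). The NFE2L3 call was lost without THUMPD1 KO replicate 1 (0.0558), THUMPD1 KO replicate 3 (0.0637) or WT replicate 3 (0.0549). NFYC was at 0.082 and not called. MAFF was below the filter.

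Of the bound factors, UCHL5, a deubiquitinase of the 19S particle, was higher at 0.16 (limma-voom adjusted p = 0.0320), and so was UBE3C, a ligase on the proteasome, at 0.13 (0.0256). Neither call held by edgeR (0.0503 and 0.110), and UBE3C was also lost by DESeq2 (0.0536) and with TMM library sizes (0.0673). The UCHL5 call was also lost without each THUMPD1 KO library (0.0586, 0.113 and 0.0663 for replicates 1, 2 and 3) and without WT replicate 3 (0.150), and after removal of the trend along GC content and length without and with the block (0.0956 and 0.0574). The UBE3C call was lost in each fit without 1 library other than that without WT replicate 1 (0.0360), and its adjusted p was then 0.0540 to 0.0955. Among genes that deliver substrates, NSFL1C was higher at 0.18 and UFD1 lower at −0.16, both partners of the segregase VCP, and NPLOC4 was at 0.11 and not called. UFD1 lies on chromosome 22, where the median of the other 374 tested genes was −0.34. The NSFL1C call was lost without THUMPD1 KO replicate 2 (0.0908), THUMPD1 KO replicate 3 (0.0746) or WT replicate 3 (0.0603). The UFD1 call was lost without THUMPD1 KO replicate 1 (0.0554), THUMPD1 KO replicate 3 (0.0615), WT replicate 2 (0.0676) or WT replicate 3 (0.0880). UBA6, a ubiquitin-activating enzyme, was lower at −0.14, a call lost without THUMPD1 KO replicate 3 (0.0520), WT replicate 2 (0.0529) or WT replicate 3 (0.0641). UBA1 and UBB, at −0.11 and 0.065, were not called.

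In antigen processing, 4 of 10 tested genes were called, where 26.7% of all tested genes were. TAP2, TAPBP and TAP1, which move peptides into the endoplasmic reticulum and load them onto HLA class I, were lower at −0.41, −0.48 and −0.25 (limma-voom adjusted p = 2.87e-04, 0.00541 and 0.0349), while HLA-B was higher at 0.26 (0.00224). TAP2 had 2218, 1940 and 1761 counts in WT against 1479, 1650 and 1202 in THUMPD1 KO, with no overlap on the CPM scale. Among the tested genes that were not called, ERAP1 was at 0.19, IRF1 at 0.089, B2M at 0.079 and HLA-C at 0.0053. The TAP1 call was lost in each fit without 1 library other than that without THUMPD1 KO replicate 2 (0.0381), and its adjusted p was then 0.0528 to 0.116. It was also lost with no CPM filter (0.0786) and after removal of the trend along GC content and length (0.0707). TAP1 overlaps PSMB9, which had at most 10 counts in any library. HLA class I genes share near-identical sequence, so the HLA-B count is uncertain. NLRC5 was below the filter.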

How the data were processed

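Total RNA of 3 WT and 3 THUMPD1 KO HEK-293T libraries was depleted of ribosomal RNA and sequenced in paired-end mode from stranded libraries. The deposited values are expected counts that the authors obtained with RSEM after STAR alignment on GRCh38, with no scaling across samples. No source used here gives the strand option of RSEM. Positions, exon lengths and codons came from GENCODE 44, in which 58472 of 58870 IDs were found, and the methods name release 46. The RefSeq promoter table gave windows for 42 members.

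The fit followed the methods of the paper, with a minimum of 1 CPM (here in at least 3 of 6 libraries, a number not stated there), quantile normalization and limma-voom (limma 3.58.1, R 4.3.3) with genotype as the only term, and two-sided p values were adjusted over 15088 genes. The script was tested on simulated data. Members were all rows meeting the symbol rule, and other named genes were the 3 of each pathway list with the smallest adjusted p and all called ones. NFE2L1, POMP, ADRM1, SEM1, MAFF, NLRC5, ERAP1, IRF1, B2M, HLA-C, neighbouring genes and the marker NEFM were named outside this rule, after their values were seen. Some genes of the antigen processing list are not reported here. Members, lists and motifs were chosen with earlier results of these data known.

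Replicate numbers are shared by the genotypes. Deviations from genotype means over 12957 genes correlated at 0.29, 0.25 and 0.16 for equal numbers and at −0.27 to 0.11 for unequal ones, so the numbers were taken to pair libraries and a fit with that number as a block was added. Other alternatives were TMM or total library sizes, other CPM filters, edgeR 4.0.16 and DESeq2 1.42.0 on rounded counts, sample quality weights, removal of the trend along GC content and length, pseudogene counts added, an adjusted p under 0.01, and each library left out. The canonical transcript as length was added after seeing the data.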

Additional observations from a re-analysis of the deposited data

How the results depend on the processing

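No called member changed direction under any of the 18 alternatives, and 8 of the 11 (PSMD5, PSME1, PSME2, PSMC1, PSMD6, PSMB2, PSMF1 and PSMG1) were called in all of them, while PSMB7, PSMD3 and PSMD4 were lost in at least 1. The count of 11 members ranged from 9 to 12 with each library left out, and was 10 by edgeR, 11 by DESeq2, 8 at an adjusted p under 0.01 and 16 with the replicate block. It was 17 with the block after removal of the trend along GC content and length, where 37.8% of all genes were called, which added PSMA5 (0.0105), PSMB4 (0.0302), PSMC3 (0.0201) and PSMD8 (0.00826) to those called with the block alone, while PSMB10, PSMD1 and PSMD12 were no longer called. With sample quality weights PSMD1 (0.0443) and PSMD13 (0.0439) were called. The count of 11 pathway genes was 7 with no CPM filter and 4 at an adjusted p under 0.01, and ranged from 4 to 10 with each library left out. The pairing by replicate number, used as a block, left it at 11. With no CPM filter the UCHL5 (0.0615), NSFL1C (0.0568) and UFD1 (0.0505) calls were lost, NSFL1C also by DESeq2 (0.0704) and with TMM library sizes (0.0610). Over all genes, the count of 4025 was 2083 at an adjusted p under 0.01 and ranged from 2663 (without THUMPD1 KO replicate 2) to 4245 with each library left out. The median level per length of the 14 core genes in WT, 47.5 RPKM on the union of exons, was 80.9 on the longest and 92.9 on the canonical transcript. The summed level in THUMPD1 KO, 106% of WT, was 104% with TMM library sizes. Causes of these shifts were not tested.

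Sign changes were seen in 13 members, none of them called and all close to 0. After removal of the GC content and length trend, without and with the block, the log2 fold change was −0.0042 and −0.0043 for PSMA1, −0.0014 and −0.0018 for PSMA4, 0.0062 and 0.0053 for PSMB5, and −0.042 and −0.043 for PSMC2. With sample quality weights it was −0.011 for PSMA4, −0.024 for PSMA7, −0.027 for PSMB3 and −0.018 for PSMC2. PSMC2 was also at −0.0025 by DESeq2, −0.0031 by edgeR and −0.0016 with TMM library sizes, and PSMB1 was at 0.00077 with total counts alone. With each library left out, the range was −0.0023 to 0.12 for PSMA3, −0.029 to 0.091 for PSMA4, −0.024 to 0.051 for PSMA7, −0.048 to 0.063 for PSMB3, −0.098 to 0.020 for PSMB5, −0.024 to 0.098 for PSMB6 and −0.038 to 0.049 for PSMC2. It was −0.011 to 0.070 for PSMD9, −0.049 to 0.019 for PSMD10, −0.078 to 0.022 for PSMG2 and −0.013 to 0.086 for PSMG4.

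With 3 libraries per genotype, a member at the median standard error of 0.052 could not be placed closer than the intervals given. PSMB8, PSMB9, PSMA8 and PSMB11 had too few counts for a test. All THUMPD1 KO libraries came from 1 clone.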
